A study of Rattus norvegicus with 3 samples.

Results

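Fatty acid oxidation and ketone metabolism were described through 44 rat genes for the uptake, binding and activation of fatty acids, for beta oxidation in mitochondria and peroxisomes, and for ketone bodies. A probe belonged to a member when its RefSeq record was that of a listed gene, and each of the 44 genes had at least 1 of 49 probes on the array. A probe was kept when it was well above background in the same colour on all 3 arrays. This left 42 members among 14183 genes tested. Of these genes 8912 had a symbol in the reference, and the rest were counted by the array's own transcript names, so that a gene may stand under several. Of the members tested, 41 were well above background in both colours on all arrays. Acox2 passed through the control colour, being well above background in G200 on 1 of 3 arrays. Acox3, a peroxisomal acyl-CoA oxidase, and Pdk4, the kinase that switches cells from glucose to fatty acids, were not well above background in either colour on any array and were not tested.

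The kidneys came from male Sprague-Dawley rats, 5 weeks old at purchase and acclimated for 1 week. They drank water with 200 ppm GABA (gamma-aminobutyric acid) for 3 weeks (G200) or the same water without GABA (control), and all were fed the same standard diet. The labels state 3 rats per group and name the tissue a non-tumor region of the kidney, and the published methods state 8 rats per group. Each of the 3 two-colour Agilent arrays carried control RNA in Cy3 (green) and G200 RNA in Cy5 (red).

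No array had these dyes swapped, and therefore an effect of the dye and an effect of GABA cannot be told apart in any ratio given here. All 3 arrays lay on 1 slide. The green channels of any 2 arrays differed by 1.07 to 1.17 times the squared difference between replicate spots of 1 array (377 probes), while the red channels differed by 2.52 to 3.37 times (369 probes). The control was therefore counted as 1 sample, and the tests cover the spread between G200 samples but not that between control rats. Kidney markers were present in both groups, with 12 of 13 proximal tubule and 7 of 8 thick limb and distal nephron genes well above background in both colours on every array. Unexpectedly for a kidney, hepatocyte markers were also bright in the control, and their values stand beside those of Fabp1.

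Long-chain fatty acids enter cells with the help of CD36, are carried in the cytosol by fatty acid binding proteins and are activated to acyl-CoA by synthetases. Mitochondria take them up through the carnitine shuttle and shorten them by beta oxidation, passing electrons to the respiratory chain through the electron transfer flavoprotein. Peroxisomes shorten very long and branched chains first. The proximal tubule relies on fatty acids for most of its energy, whereas ketone bodies are made mainly in the liver and burned in tissues such as the kidney.

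Of the 42 members tested, 9 were higher in G200 at a limma adjusted p under 0.05 (background 11.55% of all genes, or 1638) and 7 were lower (background 25.9%, or 3678). The members higher were Fabp3, Etfa, Ech1, Cd36, Acadm, Eci1, Acot1, Etfdh and Cpt1a, and those lower were Fabp1, Acsl1, Etfb, Acaa1a, Acadl, Bdh1 and Acox2. The remaining 26 passed in neither direction. The log2 ratio of G200 over control was positive on all 3 arrays for 18 members (26.6% of all genes) and negative on all for 11 (41.7%). The median over the members was 0.13, beside -0.05 over all genes tested. Without replicate 3, limma passed 0 members as higher (9 at an unadjusted p under 0.05) and 4 as lower (6 unadjusted). An unmoderated test of the 3 log ratios against 0 passed 0 in either direction after adjustment (4 higher and 6 lower unadjusted). An unequal-variance test between the channels, the kind named in the study's methods, passed 0 as higher and 1 as lower (3 and 5 unadjusted). A limma fit of separate channels passed 5 as higher, without Cd36, Etfdh, Eci1 and Cpt1a, and 7 as lower. Both take the 3 green channels as replicates, although these vary about as little as replicate spots, so their control n of 3 is technical. Among the 41 members well above background in both colours, limma passed 9 as higher and 6 as lower.

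**Figure D1:**
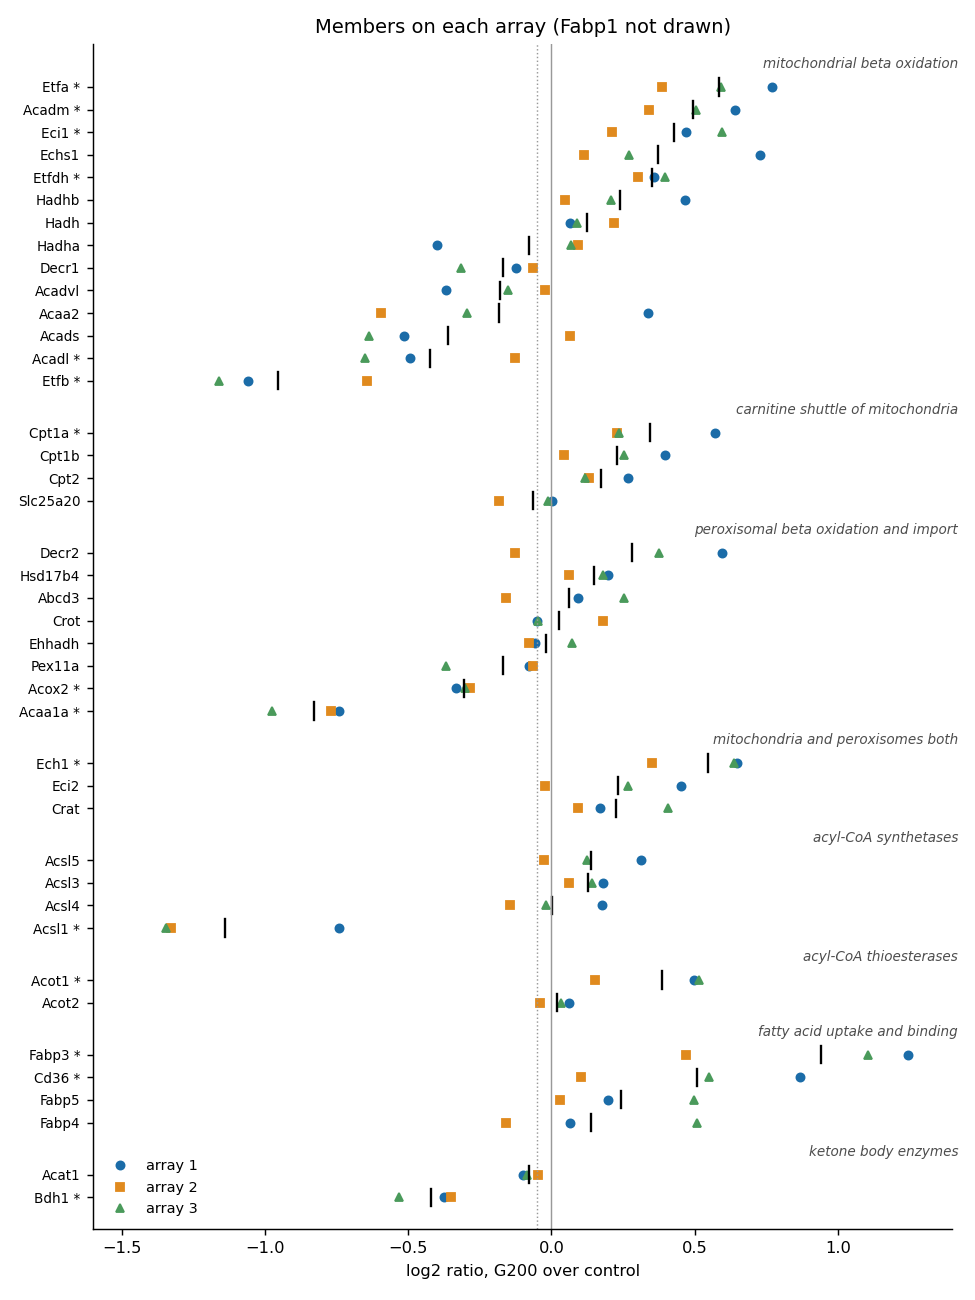
Log2 ratio of G200 over control of 41 tested members on arrays 1, 2 and 3 (symbols) with their mean (black tick), grouped by role; an asterisk marks an adjusted p under 0.05 and the dotted line the median of all genes, -0.05. Fabp1 (mean -3.80) lies outside the axis and is not drawn. Array 2 holds the lowest ratio of each of the 9 members that were higher.

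Among the proteins of uptake and binding, Fabp3, the heart-type fatty acid binding protein, had log2 ratios of 1.24, 0.47 and 1.11 on arrays 1, 2 and 3. Its mean of 0.94 ± 0.41 (SD, n = 3), or 1.92-fold, was the largest rise among the members tested (adjusted p = 0.00615). Cd36, the membrane protein that takes up long-chain fatty acids, had ratios of 0.87, 0.10 and 0.55, a mean of 0.51 ± 0.38 (adjusted p = 0.0346). Both genes were positive on every array and lowest on array 2, where Cd36 was close to 0. A second Cd36 probe gave 0.41, 0.12 and 0.30, in the same order. Fabp5 (mean 0.24) and Fabp4 (mean 0.14), the epidermal and adipocyte binding proteins, did not pass.

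Fabp1, the liver-type binding protein, moved the other way and by far more. Its log2 level was 12.74, 12.75 and 12.71 in the control and 10.49, 8.91 and 7.40 in G200. The groups did not overlap, the control hardly varied, and the G200 samples spread over a wide range. The log2 ratios were -2.25, -3.85 and -5.31, with a mean of -3.80 ± 1.53, so that the level in the control was 13.9-fold that in G200 (adjusted p = 0.00367). With limma's robust variance estimate the adjusted p was 0.0620, which ends the call, and over all alternatives it ranged from 9.87e-06 to 0.170. The mean ratio of Fabp1 was -3.07 with median centring and -2.72 with no dye normalization, a smaller fall than after loess.

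Hepatocyte markers moved with Fabp1. All 22 of the 22 tested markers (24 listed; Tat and Cps1 were not well above background) were lower in G200, each by at least 2-fold in its mean over the arrays, with a median log2 ratio of -1.59, -2.96 and -4.09 on arrays 1, 2 and 3. Their summed level was 231104, 257263 and 266698 intensity units in the control and 69729, 28349 and 11709 in G200. Transthyretin (Ttr) had their brightest probe in the control, with log2 ratios of -1.86, -3.80 and -5.49. All 22 were well above background in G200 too, on every array. The number past the threshold as lower was 22 after loess, 21 with the deposited ratio and 18 with median centring or no dye normalization. The ratio was highest on array 1 and lowest on array 3 for 22 of 22 markers, for 4 of 42 members (Fabp1, Acsl1, Acaa1a and Cpt2) and for 13.5% of all genes. The part of hepatocyte RNA in the fall of any member was not tested, and fewer cells of a type cannot be told apart from less RNA per cell in whole tissue. Whether liver RNA was present in the control samples was not tested either, so the control level of Fabp1 and of other genes that liver expresses may not be that of kidney alone.

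**Figure D2:**
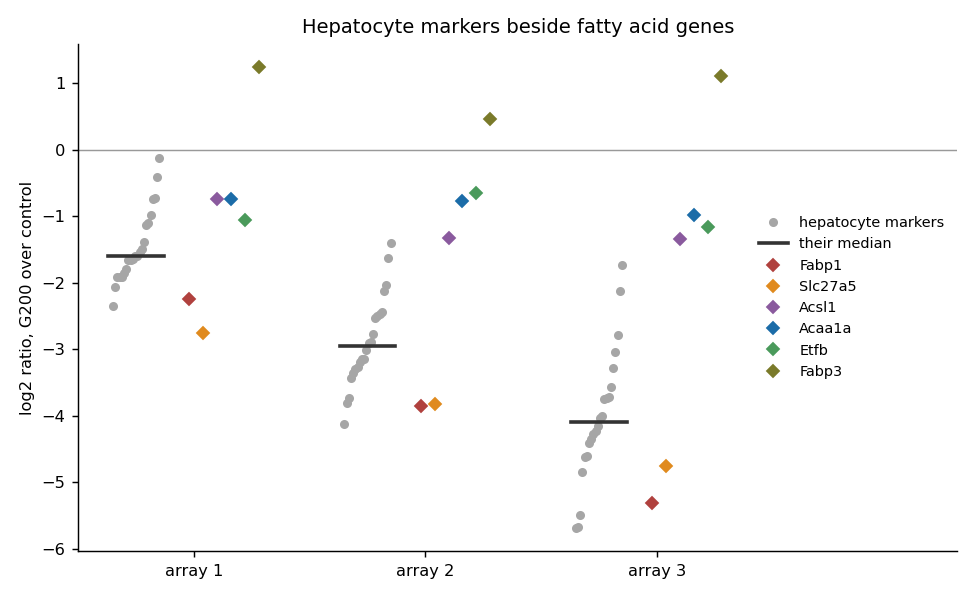
Log2 ratio of G200 over control on each array for the 22 hepatocyte markers (grey points, median as a bar) and for 6 fatty acid genes (diamonds). Fabp1 (-2.25, -3.85 and -5.31) and Slc27a5 (-2.75, -3.82 and -4.75) spread over the arrays as the markers do, while Etfb (-1.06, -0.64 and -1.16) and Fabp3 (1.24, 0.47 and 1.11) do not.

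The promoters of Fabp1, the member with the largest change, and of Etfa, which had the largest rise among members with a match, are shown because both carry a match to the response element of the PPAR receptors, lipid-sensing factors that bind as partners of RXR. The element searched was AGGTCA repeated in the same direction with 1 base between, on both strands. RefSeq promoters of 300 bases (250 before to 50 after the start, GRCr8) were found for 37 members. A perfect match occurred in 0 of 37 and in 18 of 33469 promoters of all genes (0.0538%). With 1 mismatch allowed, a step added after the data were seen, Fabp1 and Acadvl held a match (5.41% of members, 0.439% of all promoters). With 2 mismatches, at most 1 in a repeat, Crat, Echs1, Etfa and Slc25a20 were added (16.2% of members, 2.26% of all). Capitals mark the match, which lies on the strand opposite to the one printed, and a match is no evidence that a factor binds there.
Fabp1, GRCr8 chr4:104749090-104749389, plus strand: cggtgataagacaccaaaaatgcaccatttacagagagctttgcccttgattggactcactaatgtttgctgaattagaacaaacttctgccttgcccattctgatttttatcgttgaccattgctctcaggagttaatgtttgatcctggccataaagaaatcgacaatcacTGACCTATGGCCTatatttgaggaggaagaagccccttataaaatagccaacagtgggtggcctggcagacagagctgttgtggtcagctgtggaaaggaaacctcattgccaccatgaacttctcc
Etfa, GRCr8 chr8:64787916-64788215, minus strand: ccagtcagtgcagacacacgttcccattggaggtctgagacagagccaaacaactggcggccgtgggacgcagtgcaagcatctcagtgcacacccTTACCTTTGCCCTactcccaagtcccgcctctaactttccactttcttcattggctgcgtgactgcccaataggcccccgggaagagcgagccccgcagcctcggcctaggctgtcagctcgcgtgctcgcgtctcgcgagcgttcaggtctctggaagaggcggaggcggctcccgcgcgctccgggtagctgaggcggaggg
In Fabp1 the match begins at position -77 from the start site with 1 mismatch, and in Etfa at -154 with 2. AGGTCA alone stood in 18.9% of member promoters and in 16.2% of all. The member promoters had a median GC content of 60.0%, against 51.7% over all promoters, and that of Fabp1 had 44.3%. Hadha and Hadhb, the subunits of the mitochondrial trifunctional protein, start on opposite strands with promoter windows that share 200 bases. Their mean ratios were -0.08 and 0.24, and neither passed, but with the deposited ratio Hadhb was higher at 0.87 (adjusted p = 0.0269) and with no dye normalization at 0.70 (adjusted p = 0.0286).

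Activation and release of fatty acids went in both directions. Acsl1, the main long-chain acyl-CoA synthetase of oxidative tissues, had ratios of -0.74, -1.33 and -1.35, a mean of -1.14 ± 0.34 (adjusted p = 0.00219). The control was 2.20-fold above G200. The mean was -0.40 with median centring (adjusted p = 0.231) and -0.046 with no dye normalization (adjusted p = 0.897), and the call was lost under both. The other synthetases tested, Acsl5, Acsl3 and Acsl4, had means of 0.14, 0.13 and 0.00 and did not pass. Acot1, a thioesterase that splits acyl-CoA in the cytosol, was higher, with ratios of 0.50, 0.15 and 0.51 and a mean of 0.39 ± 0.20 (adjusted p = 0.0210). The mean of its close relative Acot2, which acts in mitochondria, was 0.02. Probe sequences were not used here, so that cross-hybridization between such relatives was not tested.

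In the carnitine shuttle, Cpt1a passed as higher. This enzyme of the outer mitochondrial membrane sets the rate of entry, and its ratios were 0.57, 0.23 and 0.24, a mean of 0.34 ± 0.20 or 1.27-fold (adjusted p = 0.0286). The muscle isoform Cpt1b (mean 0.23) and the inner-membrane enzyme Cpt2 (mean 0.17) were positive on all 3 arrays without passing. The carrier Slc25a20, which moves acylcarnitine across the inner membrane, had a mean of -0.06.

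The acyl-CoA dehydrogenases, which open each round of beta oxidation, were divided by chain length. Acadm, for medium chains, had ratios of 0.64, 0.34 and 0.51, and its mean of 0.50 ± 0.15 was 1.41-fold (adjusted p = 0.00635). Acadl, for long chains, had ratios of -0.49, -0.13 and -0.65, a mean of -0.42 ± 0.27 (adjusted p = 0.0270). Both genes kept 1 sign on every array, in opposite directions. Acads, for short chains, and Acadvl, for very long chains, had means of -0.36 and -0.18 and did not pass. The fall of Acadl no longer passed with the deposited ratio (adjusted p = 0.0545) or with a background offset of 0 (adjusted p = 0.0676), and its mean was 0.35 with median centring. With no dye normalization Acadl passed in the opposite direction (mean 0.70, adjusted p = 0.0222). Over all alternatives its adjusted p ranged from 0.0132 to 0.245, with means of both signs.

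Of the enzymes for the later steps, Eci1, the isomerase that moves double bonds of unsaturated fatty acids, was higher with ratios of 0.47, 0.21 and 0.60 (mean 0.43 ± 0.20, adjusted p = 0.0147). The others lay between -0.18 for Acaa2, the thiolase that ends each round, and 0.37 for Echs1, the short-chain hydratase, and none passed. Acaa2 had ratios of 0.34, -0.59 and -0.29, so its sign differed between arrays. The probes of Hadha disagreed in sign, with means of -0.08 for the brightest and 0.05 for the other.

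The electron transfer flavoprotein split between its subunits. Etfa, the alpha subunit, had ratios of 0.77, 0.39 and 0.59, a mean of 0.58 ± 0.19 or 1.50-fold (adjusted p = 0.00538). Etfb, the beta subunit of the same heterodimer, had ratios of -1.06, -0.64 and -1.16, a mean of -0.95 ± 0.27 (adjusted p = 0.00231), with the control 1.94-fold above G200. The subunits thus lay on opposite sides of 0 on each array. Etfdh, the membrane enzyme that takes over their electrons, had ratios of 0.36, 0.30 and 0.40 and a mean of 0.35 ± 0.05 (adjusted p = 0.00967). Etfb was measured by a bright probe. Its mean was -0.15 with median centring (adjusted p = 0.385) and 0.20, a change of sign, with the dyes left unnormalized, below the median of all genes each time (0.27 and 0.62).

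**Figure D3:**
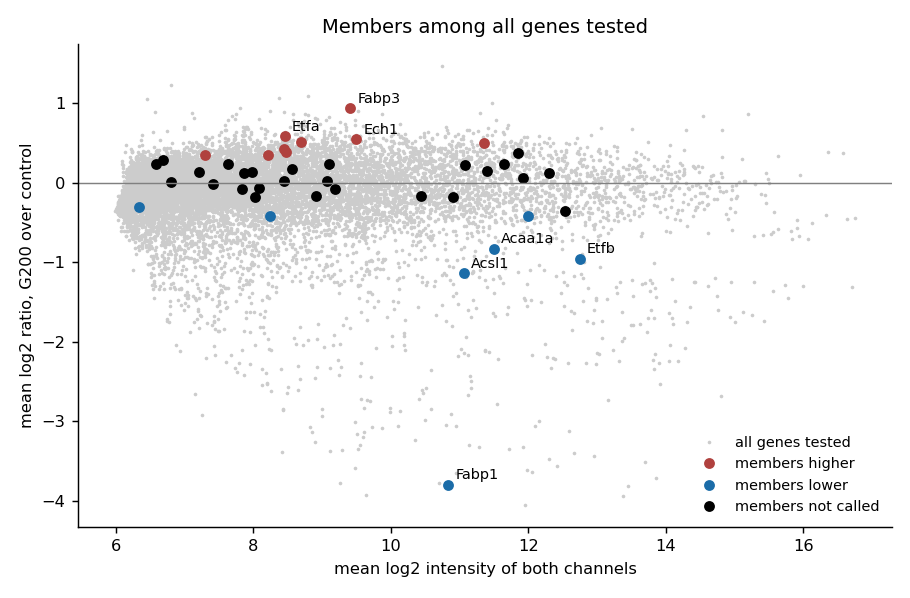
Mean log2 ratio of G200 over control against mean log2 intensity of both channels for the 14183 genes tested (grey) and the 42 members (red higher, blue lower, black not called). Fabp1 lies at -3.80, Etfb at -0.95 and Fabp3 at 0.94.

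Enzymes found in mitochondria and peroxisomes both were kept apart from either group. Ech1, an isomerase of dienoyl-CoA, had ratios of 0.65, 0.35 and 0.64, a mean of 0.55 ± 0.17 or 1.46-fold (adjusted p = 0.00550). Eci2, an enoyl-CoA isomerase, and Crat, the carnitine acetyltransferase, had means of 0.23 and 0.22 and did not pass.

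In peroxisomes, 8 members were tested and limma passed 0 as higher after loess (0 at an unadjusted p under 0.05), but 3 with median centring and 6 with no dye normalization. Of all 14183 genes, 1638, 4990 and 8010 were higher under these 3 settings. Acaa1a, the thiolase of peroxisomal beta oxidation, had ratios of -0.74, -0.77 and -0.97, and its mean of -0.83 ± 0.13 placed the control 1.78-fold above G200 (adjusted p = 0.00125), although it was -0.069 with median centring (adjusted p = 0.753) and 0.28 with no dye normalization. A second probe for it gave -0.57, -0.55 and -0.69. Both probes were negative on every array, and Acaa1a had the smallest adjusted p of the members tested. Acox2, the oxidase for bile acid precursors, had ratios of -0.33, -0.28 and -0.30, a mean of -0.31 ± 0.02 (adjusted p = 0.0139), but was well above background in G200 on 1 array only. Its mean was -0.82 at an offset of 0, -1.42 with the deposited ratio, which changes background subtraction and dye normalization together, and 0.013 with no dye normalization, so the size of its change is not settled. The means of the others lay between -0.17 for Pex11a, which shapes and divides peroxisomes, and 0.28 for Decr2, a reductase for unsaturated chains. Ehhadh and Hsd17b4, the bifunctional enzymes of the middle steps, had means of -0.02 and 0.15.

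Set side by side, the 18 mitochondrial members (beta oxidation and carnitine shuttle) had a median log2 ratio of 0.30, 0.08 and 0.10 on arrays 1, 2 and 3. The 8 peroxisomal members had -0.05, -0.10 and 0.01, and all genes -0.06, -0.04 and -0.05. The difference between the medians was 0.36, 0.18 and 0.09, positive on each array with a mean of 0.21 ± 0.14 (SD, n = 3). It was 0.14 from the mean ratios of the genes (0.15 against 0.00). Members of each group spread far more than that, from -0.95 to 0.58 among mitochondrial and from -0.83 to 0.28 among peroxisomal genes. Of the 18 mitochondrial members 5 passed as higher and 2 as lower, and of the 8 peroxisomal members 0 and 2, beside 11.55% higher and 25.9% lower over all genes. Without Acox2, kept through the control alone, Acaa1a was the 1 peroxisomal member lower. With 8 peroxisomal genes these counts cannot establish a contrast between the groups. No test was made of the difference, since members are not replicates.

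**Figure D4:**
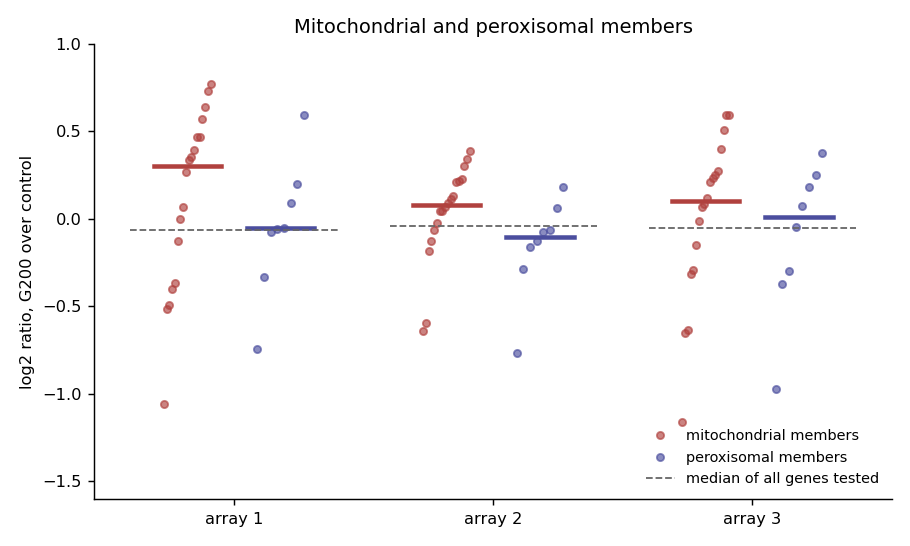
Log2 ratio of G200 over control of 18 mitochondrial and 8 peroxisomal members on each array (points, medians as bars), with the median of all genes tested (dashed). The mitochondrial median lies above the peroxisomal one on each array, by 0.36, 0.18 and 0.09, and the points of both groups overlap.

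Scaling moved these values more than the difference between the groups. The median of all genes shifted from -0.05 after loess to 0.27 with median centring and 0.62 with no dye normalization. Of all calls, 30.8% were higher after loess, 80.0% with median centring, 96.3% with no dye normalization and 40.3% with the deposited ratio. The members called were 9 higher and 7 lower after loess, 27 and 1 with median centring, and 34 and 1 without normalization, Fabp1 being the member lower under both. Of all 14183 genes, 1638 were higher and 3678 lower after loess, 4990 and 1246 with median centring, and 8010 and 304 without normalization. The counts of other lists under these scalings have the same background. Relative to the median of all genes, the mitochondrial median was 0.20 after loess and 0.35 under both other scalings, and the peroxisomal median 0.05 and 0.18. The 9 members higher lay above that median under each scaling, and 6 of the 7 lower lay below it, the exception being Acadl with median centring and with no normalization. After loess the side of the 9 was fixed by their call, since the median was below 0. Median centring and no normalization gave the same values relative to the median, so they are not separate checks.

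**Figure D5:**
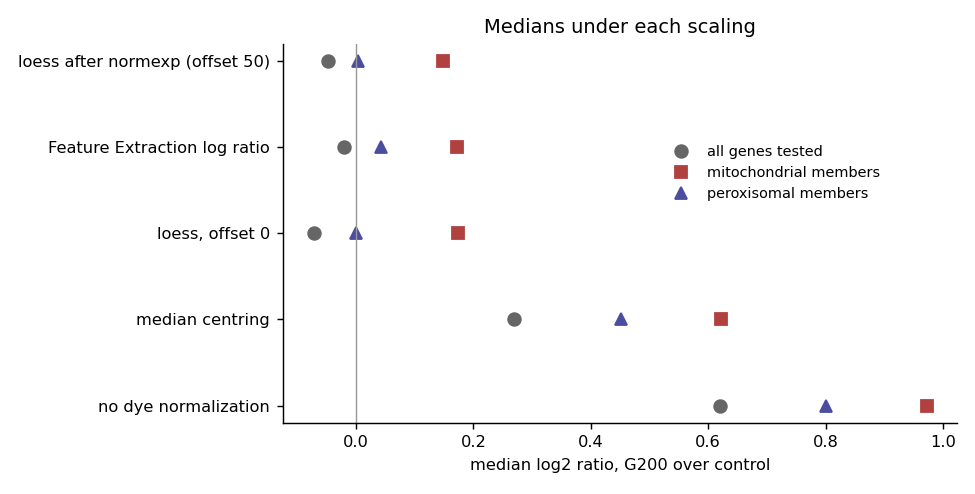
Median log2 ratio of G200 over control of all genes tested, of 18 mitochondrial and of 8 peroxisomal members under 5 ways of scaling. All medians move to the right with median centring and with no dye normalization, where that of all genes is 0.27 and 0.62, and the mitochondrial median stays above the peroxisomal one.

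In ketone metabolism, Bdh1, the mitochondrial dehydrogenase that interconverts beta-hydroxybutyrate and acetoacetate, had ratios of -0.37, -0.35 and -0.53. Its mean of -0.42 ± 0.10 passed as lower (adjusted p = 0.00743), but was 0.13 with median centring and 0.48 with no dye normalization, where it did not pass. Acat1, the mitochondrial acetoacetyl-CoA thiolase, had a mean of -0.08. Oxct1, which activates acetoacetate for burning outside the liver, had ratios of 0.53, 0.51 and 0.40 (mean 0.48 ± 0.07, adjusted p = 0.00424). Bdh2, a cytosolic dehydrogenase, had ratios of 0.63, 0.43 and 0.39 (mean 0.48 ± 0.13, adjusted p = 0.00597). Both rose on every array, and both were picked with their values already in view.

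Genes that feed the same pathways were counted in lists. For carnitine supply and malonyl-CoA, 4 of 5 genes were tested and Bbox1, the last enzyme of carnitine synthesis, was lower (adjusted p = 0.0220). It was well above background in G200 on no array and was kept through the control alone. Its mean ratio placed the control 1.27-fold above G200, a size open to dye bias. The call was lost with no dye normalization (mean -0.12, adjusted p = 0.603). Of 8 tested genes of other uptake and activation, 1 was higher and 4 lower. Slc27a5, the bile acid and very long-chain acyl-CoA synthetase of the liver, had ratios of -2.75, -3.82 and -4.75 (mean -3.77 ± 1.00, adjusted p = 0.00119). Fabp7, the brain-type binding protein, had a mean of -1.47 ± 0.43 (adjusted p = 0.00174) but was well above background in G200 on 1 array only, and its mean moved to -2.83 at an offset of 0, -3.70 with the deposited ratio, -1.22 with median centring and -0.87 with no dye normalization. Both were lowest on array 3, as the hepatocyte markers were. Acss2, which activates acetate and was picked with its values already in view, rose with ratios of 0.94, 0.40 and 1.04 (mean 0.79 ± 0.34, adjusted p = 0.00646).

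Other peroxisomal genes went in both directions. Of 15 enzymes and carriers tested, 1 was higher and 5 were lower, led by the membrane channel Pxmp2 (mean -0.51 ± 0.24, adjusted p = 0.0120) and the thiolase Acaa1b (mean -0.42 ± 0.09, adjusted p = 0.00669), the close relative of Acaa1a. Of 12 peroxins, which build peroxisomes, the membrane docking protein Pex13 was higher (mean 0.33 ± 0.09, adjusted p = 0.0143) and the import receptor Pex19 lower (mean -0.33 ± 0.02, adjusted p = 0.0110). The mean of the 4 kept Pex19 probes was -0.12 (adjusted p = 0.170), and the deposited ratio lost its call too (adjusted p = 0.0761), passing 5 peroxins as higher and 0 as lower. Pxmp2, Acaa1b and Pex19 turned positive with median centring and with no dye normalization, where Pxmp2 (adjusted p = 0.0495) and Acaa1b (adjusted p = 0.0483) passed as higher. The 15 enzymes and carriers had 2 higher and 2 lower with the deposited ratio, 5 and 0 with median centring and 12 and 0 with no dye normalization.

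Of the PPAR receptors and partners, Ppara and Ppard were not well above background, and of 6 tested genes Pparg alone passed, as lower (mean -0.39 ± 0.28, adjusted p = 0.0367). That call was lost with the deposited ratio (adjusted p = 0.0861), an offset of 0 (adjusted p = 0.0546), separate channels (adjusted p = 0.190) and median centring (mean -0.052, adjusted p = 0.788), with any 1 replicate left out, and with no dye normalization, where the mean was 0.30. Of the 6 tested receptors and partners, 2 were higher and 0 lower with median centring, and 3 and 0 with no dye normalization. Of 5 other PPAR responsive genes tested 2 were lower, of which Acot12 was well above background in G200 on 1 array. Angptl4, a secreted inhibitor of lipoprotein lipase, had ratios of -0.69, -1.32 and -1.49 (mean -1.17 ± 0.42, adjusted p = 0.00341), in the array order of the hepatocyte markers. Its call was lost with median centring (mean -0.57, adjusted p = 0.118) and with no dye normalization (mean -0.22, adjusted p = 0.523). Of 13 branched-chain and odd-chain acyl-CoA enzymes 4 were higher and 0 lower by limma (0 at an unadjusted p under 0.05, and 0 lower with each scaling tried). Among them were Hsd17b10 (ratios 0.71, 0.43 and 0.51, adjusted p = 0.00463), a dehydrogenase of isoleucine breakdown, and Pcca (ratios 0.71, 0.28 and 0.65, adjusted p = 0.00916), a subunit of propionyl-CoA carboxylase. Their mean was 0.55 each. With the deposited ratio 5 of the 13 enzymes were higher, with median centring 10 and with no dye normalization 12. Of all 14183 genes, 2149, 4990 and 8010 were higher under the same settings. Of 11 genes of fatty acid and triglyceride synthesis 3 were higher and 5 lower, and the desaturase Scd had ratios of -1.65, -2.42 and -3.09 (mean -2.39 ± 0.72, adjusted p = 0.00162), also in the array order of the hepatocyte markers. The counts of this list were 2 higher and 2 lower with the deposited ratio, 4 and 1 with median centring and 7 and 1 with no dye normalization. The mean of Scd was -3.27 with the deposited ratio, -3.03 at an offset of 0, -1.84 with median centring and -1.49 with no dye normalization.

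The arrays themselves differed. Array 2 held the lowest ratio of all 9 members that were higher, against 65.5% of the 1638 genes higher among all genes. The interquartile range of the ratios over all genes was 0.48, 0.32 and 0.42 on arrays 1, 2 and 3. Spots well above background made up 63.0%, 56.6% and 61.0% in red and 59.8%, 62.7% and 62.3% in green. Array 2 thus had the narrowest ratios and the fewest red spots above background, and its part in the ratios was not tested.

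Markers of other cell types moved less than those of hepatocytes. Of 12 proximal tubule markers, 3 were higher and 1 was lower (median 0.16, or 0.84 with median centring). Their summed level, led by Miox, was 167071, 141990 and 153547 in the control and 164623, 175866 and 160989 in G200, which overlap. Of 7 thick limb and distal nephron markers, Umod was higher, with ratios of 0.98, 0.81 and 0.82. Adipocyte markers (4 tested, led by Adipoq) had 0 higher and 1 lower, muscle markers (3 tested, led by Actc1) 0 and 2, endothelial markers (6 tested, led by Plvap) 0 and 1, and macrophage markers (7 tested, led by Lyz2) 1 and 1. These counts are those after loess. With no dye normalization 11 proximal tubule, 6 thick limb and distal nephron and 5 macrophage markers were higher, beside 8010 of all 14183 genes. Plin1, Plin4 and Egfl7 had no matched probe, and Slc5a12, Calb1, Lep, Lipe, Ckm, Acta1, Tnnt3, Myh4, Myh6, Tek and Cd163 were not well above background. Fat and endothelium also make Fabp4 and Cd36, and the median was -0.06 over the adipocyte markers and -0.12 over the endothelial ones, whose genes ranged from -0.56 for Pecam1 to 0.14 for Emcn. By limma 0 adipocyte and 0 endothelial markers were higher after loess (0 at an unadjusted p under 0.05), but 1 endothelial marker was with the deposited ratio, 2 with median centring, and 3 endothelial and 1 adipocyte markers with no dye normalization. The part of these cells in the ratios of Fabp4 and Cd36 was not tested.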

How the data were processed

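RNA from the kidneys of control and G200 rats was compared on 3 two-colour Agilent arrays, control in Cy3 and G200 in Cy5. Per the file headers, the tables hold spot and local background medians as intensity in scanner units, not corrected. The authors' deposited log ratio is a log10 of red over green after the background subtraction and dye normalization of Feature Extraction, whose version is 9.3.2.1 in the labels and 11.5.1.1 in the headers. Mean spot signals were not in the tables, so the medians were used.

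In R 4.3.3, limma 3.58.1 applied normexp background correction (offset 50) and loess within each array. Control spots and outlier spots (635, 736 and 945 on arrays 1, 2 and 3) were left out, replicate spots were averaged and counted as well above background by majority, and each gene took its brightest probe. Of 30367 probes, 18355 were matched to a symbol of the reference by their RefSeq record, the others keeping the array's own transcript name, and 15651 were kept. Each ratio is formed within an array, which is the block, and limma tested the mean ratio against 0 (two-sided, p-values adjusted by Benjamini and Hochberg across every gene tested). The number of arrays limits the precision. Figures were drawn in matplotlib 3.10.9 with Python 3.11.15, and the steps were tested on simulated data.

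Array values are given for members past an adjusted p of 0.05, up to 6 in each direction with the largest change and at least 1 for each role. In the other pathway lists, genes changed by 2-fold or more past that threshold are named, and otherwise up to 2 with the largest change. Array values of Etfdh, Acox2 and Acaa2, outside this rule, were added after they had been seen. The members and lists were chosen with earlier results of these data known. Lists of marker genes covered hepatocytes, proximal tubule, thick limb and distal nephron, adipocytes, muscle, endothelium and macrophages. Alternatives were the deposited ratio, an offset of 0, median centring, no dye normalization, other filters and probe rules, separate channels, an unmoderated test of the ratios, the unequal-variance test named in the study's methods, a robust variance and leaving out each array.

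With 3 arrays in 1 dye direction, no fit can separate dye from treatment. The control counted as 1 sample, so differences between control rats are not covered. Transcript levels in whole tissue give neither enzyme amounts nor fatty acid oxidation, and close relatives may share a probe's signal.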

Additional observations from a re-analysis of the deposited data

How the results depend on the processing

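Of all 14183 genes, 4990 were higher and 1246 lower with median centring, and 8010 and 304 with no dye normalization. Median centring gave 27 members higher and 1 lower, a mitochondrial median of 0.62 and a peroxisomal median of 0.45. Signs changed there to 0.35 for Acadl, 0.43 for Acads, 0.55 for Acadvl, 0.56 for Hadha, 0.34 for Acaa2, 0.54 for Decr1, 0.47 for Slc25a20, 0.36 for Ehhadh, 0.44 for Pex11a, 0.41 for Acat1, 0.13 for Bdh1, 0.24 for Pxmp2, 0.28 for Acaa1b and 0.16 for Pex19. No dye normalization gave 34 higher and 1 lower and medians of 0.97 and 0.80, with 0.70 for Acadl, 0.78 for Acads, 0.90 for Acadvl, 0.91 for Hadha, 0.69 for Acaa2, 0.89 for Decr1, 0.20 for Etfb, 0.82 for Slc25a20, 0.28 for Acaa1a, 0.013 for Acox2, 0.71 for Ehhadh, 0.79 for Pex11a, 0.76 for Acat1, 0.48 for Bdh1, 0.59 for Pxmp2, 0.63 for Acaa1b, 0.51 for Pex19 and 0.30 for Pparg. Of these genes all but Acaa2, Etfb, Acaa1a, Acox2, Bdh1, Pex19 and Pparg passed as higher with no dye normalization. Both alternatives omit the intensity-dependent dye correction and so shift the ratios by construction.

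The deposited ratio changed the sign of Hadha to 0.026, Slc25a20 to 0.069, Ehhadh to 0.057, Acot2 to -0.011 and Acat1 to 0.079, none of them past the threshold, while Hadhb passed as higher (0.87) and Acadl no longer passed. Separate channels, with a control n that is technical only, gave 5 members higher and lost Cd36 (adjusted p = 0.1197), Etfdh (0.102), Eci1 (0.0772) and Cpt1a (0.0701), and also Pcca (0.0587). An unmoderated test gave 0 higher and 0 lower on the 3 ratios (4 and 6 unadjusted), and the unequal-variance test between channels 0 and 1 (3 and 5 unadjusted). Lower calls lost without a change of sign were Acsl1 (-0.40), Etfb (-0.15), Acaa1a (-0.069), Acox2 (-0.34), Angptl4 (-0.57) and Pparg (-0.052) with median centring and Acsl1 (-0.046), Angptl4 (-0.22) and Bbox1 (-0.12) with no dye normalization. Over all alternatives the adjusted p ranged from 1.91e-05 to 0.897 for Acsl1, 0.00108 to 0.417 for Etfb, 0.000366 to 0.753 for Acaa1a, 1.89e-05 to 0.523 for Angptl4, 0.0111 to 0.603 for Bbox1, 0.00750 to 0.378 for Pex19, 0.0328 to 0.788 for Pparg and 0.0269 to 0.359 for Hadhb. The cause was not tested.

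Leaving out each replicate gave 0 to 13 members higher and 4 to 8 lower, the lowest counts without replicate 3. Over the same settings the means ranged from -0.17 to 0.0799 for Hadha, -0.44 to 0.023 for Acaa2, -0.066 to 0.0086 for Ehhadh, -0.048 to 0.067 for Crot, -0.034 to 0.17 for Abcd3, -0.082 to 0.079 for Acsl4, -0.0030 to 0.048 for Acot2 and -0.046 to 0.29 for Fabp4. The share of promoters with the repeat was 5.41% with 1 mismatch and 16.2% with 2, chosen after seeing the data and larger by construction.

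With no filter and with the mean of all probes, 42 of 42 members kept direction and side of the threshold, as did 41 of 41 with both channels above background, 41 of 42 with an offset of 0 (Acadl weaker) and 41 of 42 with the robust variance (Fabp1 weaker). The mitochondrial median was above the peroxisomal one under each setting run, by 0.10 to 0.22. Counting Ech1 and Eci2 as peroxisomal and Crat as mitochondrial gave a difference of 0.13. All arrays lay on 1 slide, so a slide term could not be fitted. Pdk4, Acox3, Ppara and Ppard lacked signal over background.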
